A study of Mus musculus with 15 samples.

Results

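The transcripts described are a set of 32 genes that hepatocytes are known for, 22 that encode plasma or carrier proteins and 10 that encode metabolic enzymes, measured in RNA of mouse Kupffer cells. The members were given by name, and a member was taken wherever its symbol stood among the symbols of a locus. All 32 were found, of 15897 loci in each of the deposited tables. The values are FPKM, a measure that divides fragment counts by transcript length and sequencing yield, so levels can be compared between genes per length. Libraries were of 2 genotypes, ob/ob, in which leptin is not functional and the mice grow obese, and wild type with the strain label C57BL/6J, at 9 and 14 weeks of age. There were 3 ob/ob libraries (numbered 1, 3 and 4) and 4 wild type libraries at 9 weeks, and 4 libraries of each genotype at 14 weeks. Values for single libraries are given below in the order of these numbers. No other allele or agent is named in the labels, and the animals' sex, the isolation of the cells and the number of animals behind a library are not given in the sources used here. The labels do not tie libraries to separate animals, so each p-value sets a difference against a spread between libraries that could be technical.

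Hepatocytes make most of the proteins that circulate in plasma: albumin, carriers of hormones, vitamins, iron and haem, the clotting factors and the inhibitors of proteases. They also hold the urea cycle, gluconeogenesis and the breakdown of tyrosine, pathways whose enzymes stay inside the cell. Many of these genes carry a binding site for the hepatocyte nuclear factor HNF1 near their start. Kupffer cells, macrophages that reside in the liver sinusoids, lie next to hepatocytes and are not known as a main source of these proteins.

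Each group was run on a sequencing lane of its own (lane 8 for ob/ob and 7 for wild type at 9 weeks, lane 6 and 5 at 14 weeks), so genotype and lane cannot be told apart. Total FPKM ranged from 528155 to 604530 over the 15 libraries, and read depth is unknown because no counts were used. All 8 Kupffer cell markers were detected, with Clec4f at 1557 FPKM or more, and their summed level overlapped between genotypes: 8431 to 11668 FPKM in ob/ob and 9406 to 13291 in wild type at 9 weeks, and 6833 to 10258 against 7005 to 12403 at 14 weeks. Folr2 alone of these markers was lower in each ob/ob than in each wild type library at both ages. It was at 623 to 856 against 1127 to 1544 FPKM at 9 weeks and 557 to 884 against 936 to 1284 at 14 weeks. Markers of other cells differed as well. The 8 sinusoidal endothelial markers summed to 632 to 1528 FPKM in ob/ob and 1736 to 3316 in wild type at 9 weeks (868 to 2226 against 1356 to 3687 at 14 weeks), and the 3 erythroid markers found to 194 to 349 against 19.3 to 63.2 (144 to 279 against 20.6 to 39.1). The endothelial sums overlapped at 14 weeks and not at 9 weeks, and the erythroid sums overlapped at neither age. Lyve1 among the endothelial markers did not follow its sum. It overlapped at 9 weeks (17.6 to 67.9 FPKM in ob/ob against 59.7 to 86.4) and ran higher in ob/ob at 14 weeks, with overlap (55.8 to 123 against 28.6 to 65.4). Sums of 4 B cell markers did not overlap either (50.9 to 73.5 against 22.7 to 37.1, and 64.3 to 89.99 against 28.2 to 51.1), nor did those of the 3 neutrophil markers found at 9 weeks (77.0 to 279 against 21.9 to 63.9), which overlapped at 14 weeks (64.7 to 108 against 18.2 to 74.4). The 5 T and NK cell markers overlapped at 9 weeks (9.80 to 49.5 against 3.95 to 12.5) and not at 14 weeks (24.7 to 46.0 against 3.34 to 22.1). The 7 stellate cell markers overlapped at both ages (29.6 to 59.4 against 27.9 to 40.6, and 49.3 to 119.5 against 19.5 to 61.7). The 5 cholangiocyte markers did not overlap in sum at 9 weeks (20.2 to 30.8 against 7.38 to 12.4) and overlapped at 14 weeks (20.5 to 38.8 against 1.96 to 26.6), with Krt19 at 0.448 FPKM or less in each library. These sums were mostly Spp1 (19.2 to 30.1 against 6.51 to 11.5 FPKM at 9 weeks). Krt19, Krt7, Sox9 and Epcam were at 0.611 FPKM or less in each library, and each overlapped between genotypes at 9 weeks. The part of these cell types in the results below was not tested. In bulk RNA, fewer cells of a type and less RNA per cell cannot be told apart. At 9 weeks ob/ob libraries 1 and 3 stood apart in Tlr7, an X chromosome gene (183, 309.8 and 114 FPKM in libraries 1, 3 and 4, and 106 to 135 in wild type), so counts at that age are also given without them.

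Of the members, 25 of 32 had an entry among the RefSeq promoters of build GRCm38.p6, windows of 300 bases that run from 250 before to 50 after a gene's start. The half-site of HNF1, GTTAAT, was searched on both strands, so its reverse complement ATTAAC counted as well. It was in the windows of 10 of the 25 members (40%), against 8.24% of 27025 genes: 7 of 15 plasma protein genes other than Trf, 2 of 9 enzyme genes, and Fabp1. Shown are the 100 bases before the start, read 5′ to 3′ on the gene's own strand. They are given for the albumin gene, Gc of the same chromosome, and the neighbouring fibrinogen genes Fga, Fgb and Fgg of chromosome 3. The tyrosine-degrading Hpd and Hgd, the enzymes with the lowest change relative to Alb at 14 weeks, are shown too. Capitals mark the half-site.
Alb, chr5:90460770-90460869, + strand: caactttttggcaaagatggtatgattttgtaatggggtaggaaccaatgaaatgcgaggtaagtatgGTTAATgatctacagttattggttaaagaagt
Gc, chr5:89457899-89457998, - strand: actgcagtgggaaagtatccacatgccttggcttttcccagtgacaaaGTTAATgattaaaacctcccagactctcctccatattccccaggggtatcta
Fga, chr3:83026053-83026152, + strand: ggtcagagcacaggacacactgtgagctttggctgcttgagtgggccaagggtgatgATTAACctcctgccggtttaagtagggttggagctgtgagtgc
Fgb, chr3:83049864-83049963, - strand: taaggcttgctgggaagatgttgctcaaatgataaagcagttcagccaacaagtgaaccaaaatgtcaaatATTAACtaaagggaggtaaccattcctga
Fgg, chr3:83007624-83007723, + strand: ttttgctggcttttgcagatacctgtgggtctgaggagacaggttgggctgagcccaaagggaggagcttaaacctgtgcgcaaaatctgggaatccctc
Hpd, chr5:123182724-123182823, - strand: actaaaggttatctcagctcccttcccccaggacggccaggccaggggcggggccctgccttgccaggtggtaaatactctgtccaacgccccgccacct
Hgd, chr16:37580053-37580152, + strand: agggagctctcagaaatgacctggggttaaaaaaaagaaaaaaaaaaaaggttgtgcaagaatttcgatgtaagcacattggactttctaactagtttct
The match began 32 bases before the start in Alb, 52 in Gc, 43 in Fga and 29 in Fgb, and the windows of Fgg, Hpd and Hgd held none. Other motifs were in the windows of 8 members (TATAAA, 32% against 15.7% of all genes), 11 (CCAAT, 44% against 41.1%) and 10 (TTGCNNAA, a C/EBP site, 40% against 12.2%), and CAAAGTCCA, an HNF4 site, was in 0 (0.555% of all genes). A match is a string of letters and not a measured binding site.

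The comparison of ob/ob with wild type libraries asked which of these transcripts differed between obese and lean mice. Nearly all measured plasma protein transcripts rose in ob/ob libraries at both ages. Of the enzyme transcripts 4 of 8 tested did at 9 weeks and 1 of 10 at 14 weeks. At 9 weeks, 24 of the 30 members with a mean of at least 1 FPKM rose by limma on log2(FPKM + 1) at an adjusted p of 0.05 and 0 fell, while 5.12% of the 11501 loci tested rose and 2.78% fell (7.9% in all). The other 6 tested were Trf, Serpina3k, Cps1, Pck1, Hpd and Hgd, and Otc and Bhmt were below that mean. At 14 weeks 20 of 32 rose and 0 fell, while 6.57% of 11612 loci rose and 6.76% fell (13.3% in all). The median log2 change of the members tested was 2.21 at 9 weeks and 1.86 at 14 weeks, against -0.057 and -0.091 over all loci tested. Without ob/ob libraries 1 and 3, 12 of 29 members rose at 9 weeks, in a fit that takes the spread of the single ob/ob library left from the wild type group. In 30 of 32 members at 9 weeks each ob/ob library was above each wild type library, as in 9.55% of loci, and in 21 of 32 at 14 weeks, as in 8.16% of loci. Pseudocounts lower the change of low transcripts: the wild type mean was under 1 FPKM for 4 members at 9 weeks and 3 at 14 weeks. Of these, Cps1 and G6pc at 9 weeks and Cps1, Otc and Bhmt at 14 weeks were tested only because of their ob/ob levels. On FPKM itself, the ratio of group means ran from 1.19 (Trf) to 13.6 (Ttr) at 9 weeks and from 1.13 (Hpd) to 9.27 (Hpx) at 14 weeks.

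**Figure D1:**
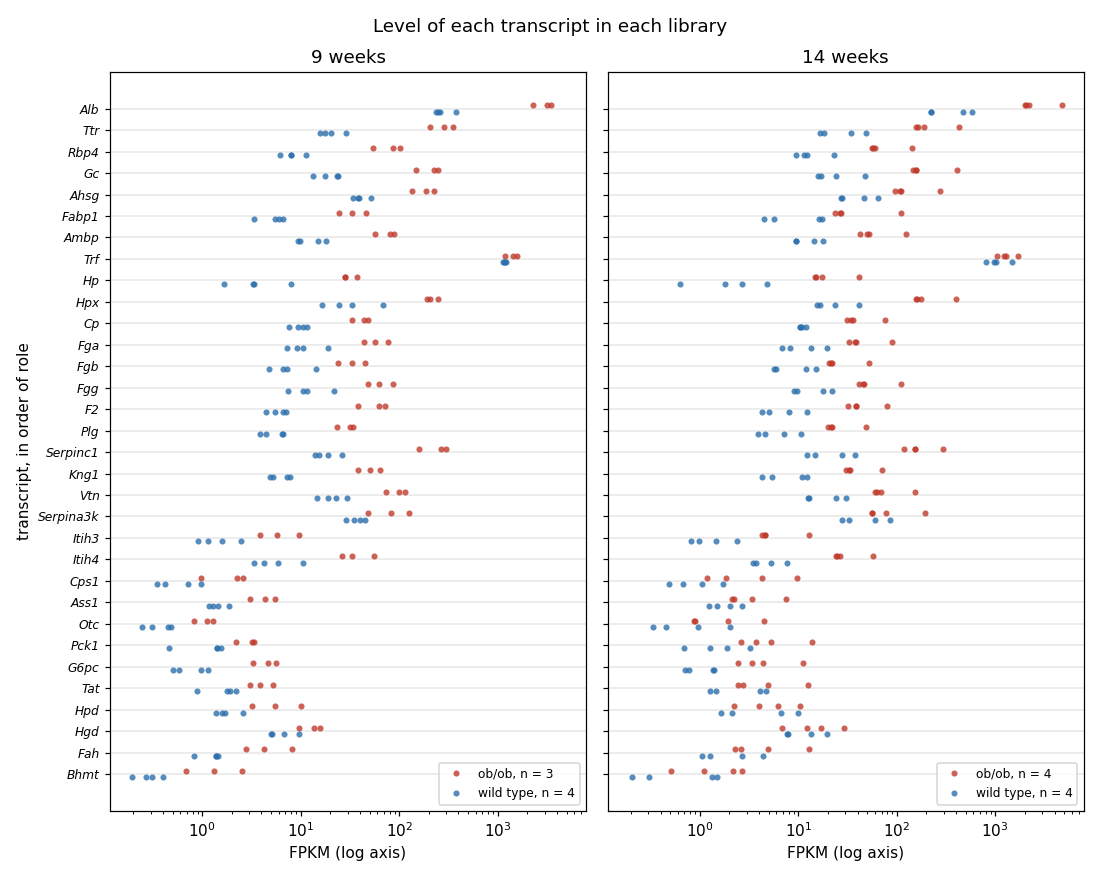
FPKM of each of the 32 transcripts (log axis) at 9 and 14 weeks, with 1 point per library in red for ob/ob and blue for wild type, in order of role from carriers at the top to enzymes at the bottom. The colours are apart for 30 transcripts at 9 weeks and for 21 at 14 weeks, where 9 of the 10 enzymes overlap.

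Among the carriers, Alb was the highest member in each ob/ob library, while in each wild type library the Trf locus was above it. Alb, the main protein of plasma, was at 3500.0, 3174 and 2295 FPKM in ob/ob and 246, 237, 378 and 261 in wild type libraries at 9 weeks. At 14 weeks it was at 2176, 4745, 2059 and 1989.6 against 581, 225, 223 and 470.0. The lowest ob/ob library was above the highest wild type one at each age, and ob/ob library 2 at 14 weeks stood well above the others of its group. The log2 change was 3.41 ± 0.21 (SE, adjusted p = 2.79e-04) at 9 weeks and 2.90 ± 0.40 (adjusted p = 0.00357) at 14 weeks by limma. Ttr, transthyretin, which carries thyroxine and retinol-binding protein, was at 350.0, 285 and 207 against 17.5, 15.7, 29.0 and 20.3 FPKM at 9 weeks and 165, 428, 155 and 188 against 48.3, 18.1, 16.6 and 34.3 at 14 weeks. Its change of 3.71 ± 0.24 was the largest of the members at 9 weeks, and it was 2.95 ± 0.42 at 14 weeks (adjusted p = 2.82e-04 and 0.00382). Gc, the vitamin D-binding protein, rose by 3.34 ± 0.25 and 2.996 ± 0.42, and Rbp4, which carries retinol, by 3.12 ± 0.25 and 2.38 ± 0.36.

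The other carriers rose by less. Ahsg, fetuin-A, which keeps calcium phosphate in solution, was at 225, 188 and 134 against 38.9, 34.0, 51.8 and 38.2 FPKM at 9 weeks and 94.9, 276, 108 and 109.7 against 64.1, 27.5, 27.5 and 46.1 at 14 weeks. The groups were apart at both ages, and its changes were 2.12 ± 0.20 and 1.75 ± 0.39 (adjusted p = 9.16e-04 and 0.0227). The call at 14 weeks was lost without wild type library 2 or 3 (adjusted p = 0.0647 and 0.0528). Ambp, the precursor of alpha-1-microglobulin and bikunin, rose by 2.47 ± 0.25 and 2.22 ± 0.34. Fabp1, a fatty acid-binding protein that stays in the hepatocyte cytosol, was at 46.2, 32.9 and 24.8 against 6.04, 3.39, 5.53 and 6.62 FPKM at 9 weeks, a change of 2.46 ± 0.25. At 14 weeks it was at 27.1, 109.9, 26.7 and 23.6 against 16.4, 4.49, 17.5 and 5.62 FPKM. Groups did not overlap there, but wild type libraries 1 and 3 stood well above 2 and 4, and the change of 1.88 ± 0.58 did not pass (adjusted p = 0.0695).

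Hp, Hpx and Cp of the iron, haem and copper proteins rose at both ages. Hpx, haemopexin, which binds free haem, was at 248, 205 and 190.0 FPKM in ob/ob and 68.5, 16.4, 32.9 and 24.2 in wild type libraries at 9 weeks, and at 159, 403, 157 and 175 against 41.0, 15.3, 16.7 and 23.5 at 14 weeks. Wild type library 1 at 9 weeks stood well above the other wild type libraries of its age. Hp, haptoglobin, which binds free haemoglobin, was at 37.4, 28.4 and 28.3 against 7.93, 1.65, 3.39 and 3.25 FPKM and at 17.5, 41.2, 14.7 and 15.3 against 4.77, 1.79, 0.626 and 2.70, and wild type library 1 was again the highest of its group at 9 weeks. The changes were 2.75 ± 0.42 and 3.14 ± 0.38 for Hpx, the latter the largest of the members at 14 weeks, and 2.81 ± 0.36 and 2.75 ± 0.43 for Hp (limma, adjusted p = 0.00841, 0.00241, 0.00387 and 0.00584). Cp, ceruloplasmin, the copper-carrying ferroxidase, rose by 1.98 ± 0.16 and 1.84 ± 0.25. Trf, transferrin, behaved otherwise: its locus was at 1431, 1588 and 1181 FPKM in ob/ob and 1163, 1198, 1121 and 1217 in wild type libraries at 9 weeks, and at 1043, 1689.6, 1213 and 1298 against 1494, 1008, 797 and 972 at 14 weeks. The groups overlapped at both ages and the changes of 0.24 ± 0.12 and 0.31 ± 0.21 did not pass (adjusted p = 0.235 and 0.356). The tables give Trf 1 value together with the overlapping genes Srprb and Gm20425, so its own level is uncertain.

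All 8 transcripts for clotting, kinin and fibrinolysis proteins rose at both ages. Serpinc1, antithrombin, was at 299.7, 264 and 158 FPKM in ob/ob and 18.8, 15.4, 26.1 and 13.9 in wild type libraries at 9 weeks, and at 119.6, 296, 155 and 153 against 38.1, 14.7, 12.3 and 27.7 at 14 weeks. F2, prothrombin, was at 71.8, 62.7 and 38.5 against 6.67, 5.44, 7.06 and 4.43 FPKM and at 32.3, 80.3, 38.4 and 38.4 against 12.2, 5.06, 4.24 and 8.07. For both, each ob/ob library was above each wild type library at both ages, with changes of 3.62 ± 0.27 and 2.96 ± 0.39 for Serpinc1 and 3.06 ± 0.23 and 2.53 ± 0.36 for F2. Kng1, the kininogen that releases bradykinin, rose by 2.81 ± 0.21 and 2.23 ± 0.36, Plg, plasminogen, by 2.29 ± 0.20 and 1.93 ± 0.35, and Vtn, the adhesive protein vitronectin, by 2.13 ± 0.24 and 2.05 ± 0.38. The fibrinogen chains moved together. Fgb was at 45.2, 33.4 and 24.0 against 14.3, 4.76, 7.31 and 6.65 FPKM at 9 weeks and 21.6, 52.6, 22.0 and 20.4 against 15.2, 5.90, 5.73 and 12.1 at 14 weeks. It had the smallest change of the 8 at both ages, 1.98 ± 0.34 and 1.48 ± 0.38 (adjusted p = 0.0144 and 0.0387), while Fga rose by 2.30 ± 0.31 and 1.94 ± 0.38 and Fgg by 2.32 ± 0.34 and 1.95 ± 0.38. The call of Fgb was lost without ob/ob library 1 at 9 weeks (adjusted p = 0.0579) and in 7 of the 8 fits that left out 1 library at 14 weeks (0.0617 to 0.0976).

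Of the last 3 secreted proteins, Itih4, of the inter-alpha-trypsin inhibitor heavy chain family, rose by 2.52 ± 0.37 and 2.46 ± 0.31. Its neighbour Itih3, a heavy chain that binds hyaluronan, was at 9.59, 5.76 and 3.84 against 2.50, 0.912, 1.61 and 1.16 FPKM at 9 weeks and rose by 1.51 ± 0.30 and 1.56 ± 0.33. Its call was lost without ob/ob library 1 or any of wild type libraries 2, 3 and 4 at 9 weeks (adjusted p = 0.0603 to 0.0683), and without wild type library 2 at 14 weeks (0.0565). Serpina3k, a serine protease inhibitor, was at 125, 83.3 and 48.7 against 44.8, 28.9, 39.9 and 34.5 FPKM at 9 weeks and at 77.0, 193, 56.6 and 55.5 against 85.6, 27.9, 32.9 and 59.9 at 14 weeks. It was apart at 9 weeks and overlapped at 14, and changes of 1.11 ± 0.30 and 0.81 ± 0.47 did not pass (adjusted p = 0.0629 and 0.277). At 9 weeks it passed without ob/ob library 4 (adjusted p = 0.0137). The tables count it together with its near copy Serpina3m, so its own level is uncertain.

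The enzymes were low, at 29.1 FPKM or less in each library, and their median change was smaller than that of the secreted proteins, a difference that was not tested. The median log2 change of the 8 enzymes tested at 9 weeks was 1.005, against 2.49 for the 20 plasma proteins other than Trf, and at 14 weeks 0.66 for 10 enzymes against 2.22. These medians are on log2(FPKM + 1), which shrinks the change of low transcripts such as the enzymes. With 0.1 FPKM added instead, changes at 9 weeks were 1.813 for Fah (from 1.33), 1.484 for Ass1 (from 1.09) and 0.985 for Hgd (from 0.89). That of Alb was 3.417 (from 3.41). The part of this scale in the gap between the classes was not tested. Of the enzymes 4 of 8 tested rose at 9 weeks and 1 of 10 at 14 weeks. At each age 19 of the 20 plasma proteins rose. Of all loci tested 5.12% and 6.57% rose, so the enzymes' share at 14 weeks is near that of loci at large. In wild type libraries the 10 enzymes together summed to 15.2, 11.3, 21.6 and 16.5 FPKM at 9 weeks and 41.8, 16.4, 44.2 and 17.4 at 14 weeks, and in ob/ob to 52.4, 50.9 and 30.7 and 25.0, 114, 54.4 and 33.4. The sums were apart at 9 weeks. At 14 weeks wild type libraries 1 and 3 were above ob/ob libraries 1 and 4.

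In the urea cycle, Ass1, argininosuccinate synthase, was at 5.44, 4.32 and 3.05 against 1.29, 1.18, 1.85 and 1.45 FPKM at 9 weeks and rose by 1.09 ± 0.17 (adjusted p = 0.00964). At 14 weeks it was at 2.12, 7.52, 3.36 and 2.23 against 2.05, 1.49, 2.70 and 1.25, overlapping, with a change of 0.64 ± 0.32 (adjusted p = 0.210). Cps1, which makes carbamoyl phosphate, had changes of 0.84 ± 0.23 and 1.16 ± 0.46 that did not pass (adjusted p = 0.0670 and 0.131), and it passed at 9 weeks without ob/ob library 4 (0.0183). Otc, which makes citrulline, was at 0.818 to 1.30 FPKM in ob/ob and 0.243 to 0.478 in wild type libraries at 9 weeks and was not tested there. At 14 weeks it was at 0.869, 4.46, 1.94 and 0.901 against 0.969, 0.334, 2.05 and 0.452 FPKM, a change of 0.57 ± 0.39 (adjusted p = 0.347).

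Of the gluconeogenic pair, G6pc, the catalytic subunit that releases free glucose, was the 1 enzyme that rose at both ages. Its wild type mean at 9 weeks was 0.799 FPKM, so it passed the filter there only through the ob/ob libraries. It was at 4.69, 5.65 and 3.26 against 0.500, 0.579, 1.15 and 0.965 FPKM at 9 weeks and 2.45, 11.3, 4.35 and 3.40 against 1.36, 0.785, 0.714 and 1.38 at 14 weeks, apart at both ages. The changes were 1.61 ± 0.19 and 1.46 ± 0.36 (adjusted p = 0.00248 and 0.0318), and the call at 14 weeks was lost in 5 of the 8 fits without 1 library (0.0527 to 0.0822). Pck1, which makes phosphoenolpyruvate, was at 2.19, 3.35 and 3.24 against 1.54, 0.455, 1.41 and 1.42 FPKM and at 3.72, 13.7, 5.24 and 2.62 against 1.88, 1.27, 3.20 and 0.692. It did not overlap at 9 weeks and overlapped at 14 weeks through wild type library 3, and its changes of 0.85 ± 0.22 and 1.27 ± 0.44 did not pass (adjusted p = 0.0566 and 0.0941).

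Tyrosine breakdown runs from Tat, the aminotransferase, through the dioxygenases Hpd and Hgd to the hydrolase Fah. At 9 weeks Tat rose by 0.92 ± 0.21 and Fah by 1.33 ± 0.28 (adjusted p = 0.0423 and 0.0302). Tat lost its call in all 7 fits without 1 library (0.0533 to 0.107) and Fah in 5 of 7 (0.0521 to 0.0835). Hpd was at 10.2, 5.43 and 3.20 against 1.72, 1.58, 2.62 and 1.38 FPKM, apart, with a change of 1.27 ± 0.31 that did not pass (adjusted p = 0.0506, and 0.0181 without ob/ob library 4). Hgd was at 15.7, 13.7 and 9.63 against 5.10, 4.97, 9.68 and 6.78 FPKM, where ob/ob library 4 was below wild type library 3, with a change of 0.89 ± 0.24 (adjusted p = 0.0615, and 0.0348 without wild type library 3). At 14 weeks none of the 4 passed. Hpd was then at 2.24, 10.4, 6.23 and 3.99 in ob/ob and 6.62, 1.64, 9.86 and 2.11 FPKM in wild type libraries, and Hgd at 6.82, 29.1, 17.1 and 12.2 against 19.8, 7.66, 13.4 and 7.94. Wild type libraries 1 and 3 lay among the ob/ob values for both, and the changes were 0.24 ± 0.53 for Hpd and 0.32 ± 0.43 for Hgd (adjusted p = 0.784 and 0.645). Tat and Fah were at 0.67 ± 0.48 and 0.86 ± 0.49 at 14 weeks (adjusted p = 0.377 and 0.267). Bhmt, which returns a methyl group from betaine to homocysteine, was at 0.691 to 2.54 FPKM against 0.193 to 0.398 at 9 weeks, and at 0.515, 2.67, 2.18 and 1.11 against 1.32, 0.206, 1.49 and 0.307 at 14 weeks (0.51 ± 0.34, adjusted p = 0.345).

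Whether the ob/ob change differed between ages was tested as an interaction over all 15 libraries. By limma, 0 of 32 members and 0 of 11568 loci passed (0% called), with 0 members and 492 loci at an unadjusted p below 0.05. The largest difference among the members was that of Hpd, which was smaller by 1.02 ± 0.69 on the log2 scale at 14 weeks (unadjusted p = 0.162). This does not show that the changes were the same at both ages.

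Changes were next set against that of Alb, as the log2 ratio of each transcript to Alb in the same library, with 0.1 FPKM added to both. By limma, 22 of 29 tested members changed by less than Alb at 9 weeks and 0 by more, while 98.7% of 11500 loci changed by less and 0.104% by more. At 14 weeks 13 of 31 changed by less and 0 by more, against 97.7% and 0.0603% of 11611 loci. The median difference from Alb was -1.02 and -0.87 for the members, against -3.48 and -2.999 for all loci. Since every ratio holds the same Alb value, the spread limma shares between loci is mostly that of Alb. On simulated libraries this fit made more false calls than its threshold allows and missed most of the smaller differences, more so at 14 weeks. There each locus was drawn independently of Alb and few loci changed relative to it, unlike in the data. Those error rates therefore do not carry over to the members. Nearly all loci passed, so the adjustment also leaves p-values almost as they were. The counts and adjusted p-values relative to Alb are therefore uncertain, a member that did not pass is not shown to follow Alb, and the ratios in single libraries are given beside them. With each locus's own variance, an alternative chosen after seeing the data, 19 changed by less and 1 by more at 9 weeks (98.2% and 0.122% of loci) and 19 by less and 0 by more at 14 weeks (96.8% and 0.138%). Without ob/ob libraries 1 and 3 at 9 weeks 15 members changed by less, and without wild type libraries 1 and 3 at 14 weeks 7 did.

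The differences of Ttr, Serpinc1, Gc, F2 and Rbp4 from Alb lay between -0.44 and 0.35 at both ages. For each 1000 FPKM of Alb there were 100, 89.7 and 90.1 FPKM of Ttr in ob/ob libraries and 71.0, 66.1, 76.6 and 77.8 in wild type ones at 9 weeks, so that ob/ob libraries were the higher. Ttr was the 1 member whose ratio to Alb was higher in each ob/ob than in each wild type library at 9 weeks, as in 0.139% of loci. Its change exceeded that of Alb by 0.35 ± 0.31, which did not pass by limma (adjusted p = 0.253) and passed with its own variance (SE 0.076, adjusted p = 0.00613). At 14 weeks the ratio was 76.0, 90.1, 75.4 and 94.5 against 83.1, 80.7, 74.7 and 73.1 and overlapped (0.10 ± 0.54). Serpinc1 differed from Alb by 0.27 ± 0.31 and 0.12 ± 0.53, Gc by -0.02 ± 0.31 and 0.15 ± 0.54, F2 by -0.18 ± 0.32 and -0.21 ± 0.53, and Rbp4 by -0.16 ± 0.32 and -0.44 ± 0.53. None of these 4 passed at either age under either variance.

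The ratios of Hp and Hpx to Alb were uneven among wild type libraries. At 9 weeks there were 279, 69.2, 87.0 and 92.8 FPKM of Hpx per 1000 of Alb in wild type libraries and 70.7, 64.6 and 82.8 in ob/ob. Wild type library 1 was apart from the other wild type libraries, which reached into the ob/ob range. The difference from Alb was -0.63 ± 0.31 at 9 weeks (adjusted p = 0.0387, and 0.575 without wild type library 1, 0.078 and 0.151 when library 1 or library 3 of the ob/ob group was left out), and 0.30 ± 0.54 at 14 weeks. For Hp it was -0.29 ± 0.33 and 0.38 ± 0.52, neither past the test. Itih4, Ambp, Fga and Fgg also lost their calls at 9 weeks without that library (adjusted p = 0.360, 0.0720, 0.0529 and 0.0653), and Itih4 without ob/ob library 3 (0.140). The calls of Fabp1 at 9 weeks were lost without ob/ob library 3 or without wild type library 1 or 4 (0.0809 to 0.105).

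In 17 members the ratio to Alb was lower in each ob/ob than in each wild type library at both ages, and in 22 at 9 weeks and 17 at 14 weeks in all (97.9% and 95.2% of loci). They were Ahsg, Ambp, Cp, Fga, Fgb, Fgg, Kng1, Plg, Vtn, Itih3, Serpina3k and Trf among the proteins and Ass1, Otc, Tat, Hpd and Hgd among the enzymes. Ahsg was at 64.3, 59.1 and 58.2 per 1000 of Alb in ob/ob and 158, 144, 137 and 146 in wild type libraries at 9 weeks, and at 43.6, 58.3, 52.7 and 55.1 against 110.3, 122, 123 and 98.2 at 14 weeks. The groups were far apart with little spread, and the difference from Alb was -1.27 ± 0.30 and -1.12 ± 0.54 (adjusted p = 2.82e-05 and 0.0374). At 14 weeks its call was lost in 6 of the 8 fits without 1 library (0.0514 to 0.105). Fgb was at 9.92, 11.1, 10.7 and 10.3 against 26.1, 26.3, 25.8 and 25.7 per 1000 of Alb at 14 weeks, the tightest ratio among the wild type libraries of that age, although their Alb ran from 223 to 581 FPKM. At 14 weeks the 3 fibrinogen transcripts, Plg, Kng1 and Vtn passed with their own variance (adjusted p = 2.79e-04 to 0.00166), and by limma Fgb alone of these did (-1.32 ± 0.53, adjusted p = 0.0124). The lowest values among the proteins were those of Trf, -3.17 ± 0.29 and -2.59 ± 0.55, and Serpina3k, -2.29 ± 0.31 and -2.07 ± 0.53, the loci shared with other genes.

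**Figure D2:**
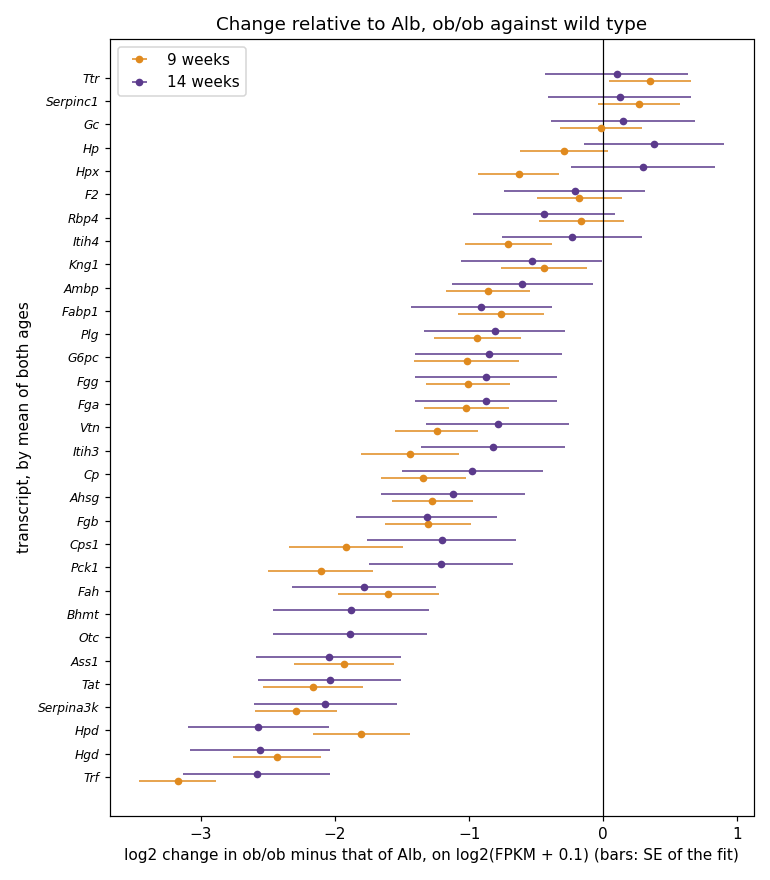
Log2 change of each transcript in ob/ob minus that of Alb, on log2(FPKM + 0.1), at 9 weeks (orange) and 14 weeks (purple), with bars for the SE of the fit. Ttr and Serpinc1 lie at or right of 0, most other secreted proteins to its left, and Trf furthest left at both ages, at -3.17 and -2.59.

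Taken as a sum, the enzymes were lower relative to Alb in ob/ob libraries at both ages. Their summed FPKM per 1000 of Alb was 14.98, 16.0 and 13.4 in ob/ob and 61.7, 47.9, 57.1 and 63.0 in wild type libraries at 9 weeks. At 14 weeks it was 11.5, 24.0, 26.4 and 16.8 against 71.8, 72.9, 198 and 36.9, with wild type library 3 far above the others and the groups still apart. Not each enzyme was apart in its own ratio to Alb. That of Bhmt overlapped at both ages, and those of Cps1, Pck1, G6pc and Fah overlapped at 14 weeks. By limma all 8 tested enzymes changed by less than Alb at 9 weeks, as did 98.7% of loci, and 9 of 10 at 14 weeks, as did 97.7%, so these shares are no trait of the enzymes. G6pc did not pass at 14 weeks (-0.86 ± 0.55, adjusted p = 0.119). At that age Pck1 lost its call in 4 of the 8 fits without 1 library and Cps1 in 3 (adjusted p = 0.0645 to 0.253 and 0.0914 to 0.235). G6pc was the nearest to Alb of the enzymes at both ages (-1.02 ± 0.39 at 9 weeks). Hgd was the farthest at 9 weeks (-2.43 ± 0.33) and Hpd at 14 weeks (-2.57 ± 0.53).

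**Figure D3:**
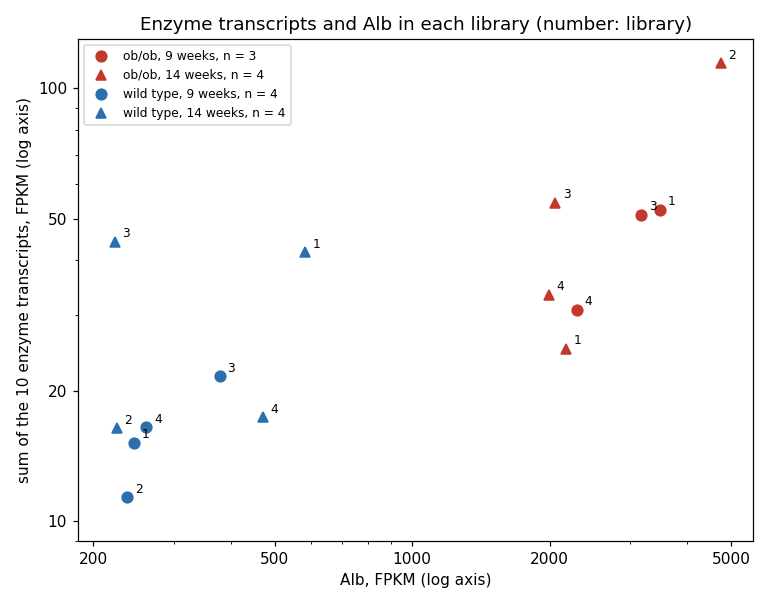
Summed FPKM of the 10 enzyme transcripts against FPKM of Alb, both on log axes, with 1 numbered point per library, circles for 9 and triangles for 14 weeks. Wild type library 3 at 14 weeks has the lowest Alb (223 FPKM) and an enzyme sum of 44.2 FPKM, above that of ob/ob libraries 1 and 4 of the same age, whose Alb was 2176 and 1989.6 FPKM.

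Variation with Alb from library to library was described within groups. Each value was taken as its deviation from the group mean of log2(FPKM + 1), so that genotype, age and lane do not enter, and Pearson's r was computed over the 15 libraries. The 31 other members had r with Alb from 0.31 (Pck1) to 0.98 (Ttr), with a median of 0.78, against 0.019 for 11567 loci. In an exact two-sided test that permutes libraries within groups (82944 arrangements, smallest p 1.2e-05), 0 members and 0 loci passed after Benjamini-Hochberg adjustment over all loci (0% called), by r or by Spearman's rho. Over so many loci a single locus at the smallest p could not pass alone, so these counts do not show a lack of correlation. The unadjusted p was below 0.05 for 21 of 31 members and 485 loci. Ttr had r = 0.98 and rho = 0.95 (p = 2.29e-04 and 0.00131, adjusted p = 0.198 and 0.300), and Ahsg r = 0.96 and rho = 0.93 (p = 5.67e-04 and 0.00211, adjusted p = 0.198 and 0.309). Without the 2 libraries whose Alb lay farthest from their group means, ob/ob library 2 and wild type library 1 at 14 weeks, r was 0.95 for Ttr and 0.93 for Ahsg and the median 0.55. The unadjusted p was then below 0.05 for 12 of 29 members. With 1 library left out it was so for 13 of 29 without that ob/ob library, 28 of 31 without wild type library 3 at 14 weeks, 24 of 31 without wild type library 4 of that age, and 20 or 21 otherwise. For Fabp1 r fell from 0.56 to -0.05 and for Pck1 from 0.31 to -0.38, so those relations rest on those libraries. By the same measure the 5 loci outside the members nearest to Alb were Cfhr2 (r = 0.96), Apoh (0.96), Proc (0.95), Aadac (0.95) and Fetub (0.95), with adjusted p of 0.198 to 0.204.

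**Figure D4:**
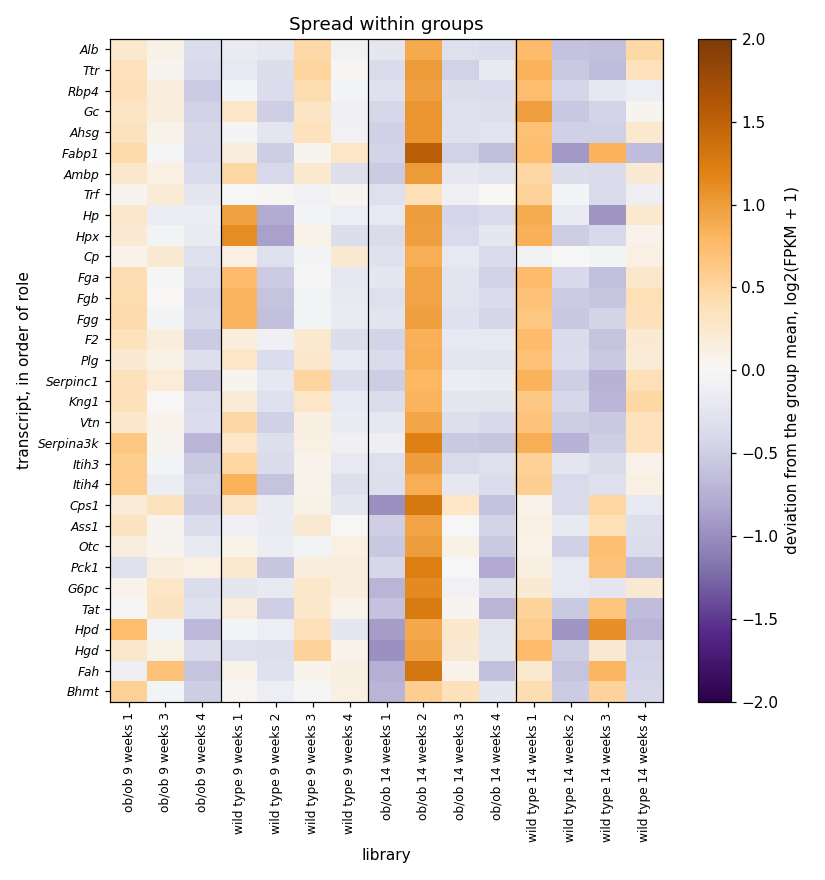
Deviation of each transcript (rows) from its group mean of log2(FPKM + 1) in each library (columns), from purple (lower) to orange (higher), with lines between groups. The column of ob/ob library 2 at 14 weeks is orange throughout, while wild type library 3 at 14 weeks is purple for most secreted proteins and orange for most enzymes.

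Correlations among the members are given by class. They are a description over 15 libraries that all pairs share. The median r was 0.90 over the 190 pairs of the 20 secreted proteins and 0.82 over the 45 pairs of enzymes, and 0.52 over the 200 pairs of an enzyme with a secreted protein. The last value turned on single libraries: it was 0.24 without ob/ob library 2 at 14 weeks and 0.74 without wild type library 3 at 14 weeks, while the first kept between 0.85 and 0.94 and the second between 0.76 and 0.87 with any 1 library left out. Fga, Fgb and Fgg were the closest group, with r from 0.987 to 0.996. Fabp1, although it came among the carriers, lay nearer to the enzymes (median 0.83 over 10 pairs, 0.92 with Tat) than to the secreted proteins (0.63 over 20 pairs), which also turned with those libraries (0.73 and 0.35 without the former, 0.81 and 0.85 without the latter). G6pc was the enzyme nearest to Alb (r = 0.80), and the other 9 enzymes had r from 0.31 to 0.64. The median r of the 10 enzymes with Alb, 0.46, also rested on single libraries: it was 0.14 (lowest -0.22) without ob/ob library 2 at 14 weeks and 0.75 (lowest 0.56) without wild type library 3 at 14 weeks. That of the 19 other secreted proteins was 0.90, and 0.84 and 0.88 without these libraries.

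**Figure D5:**
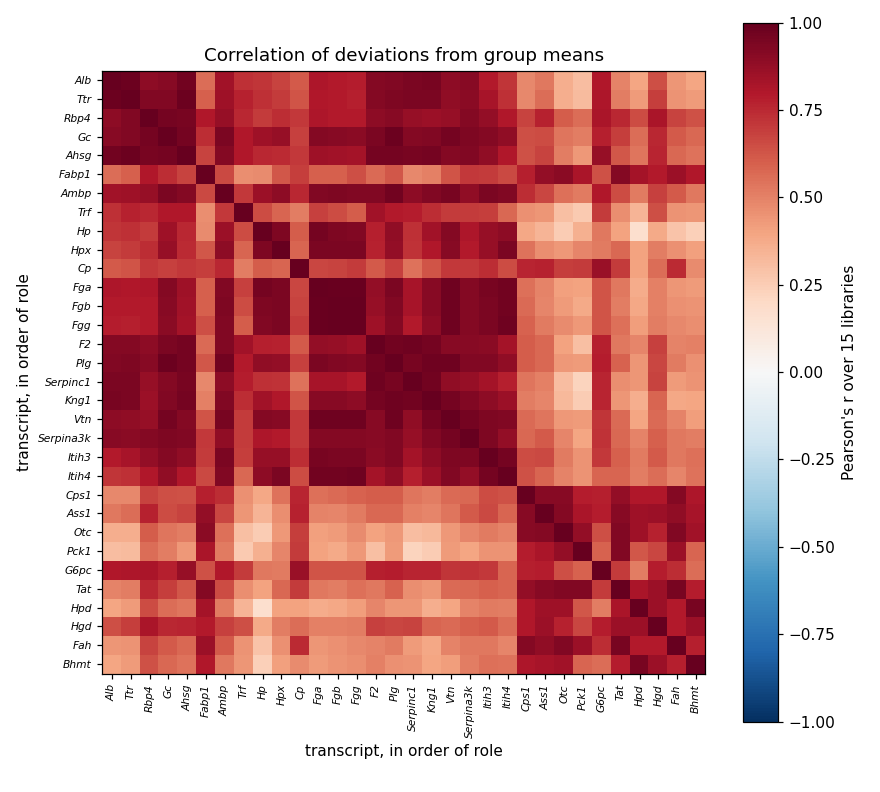
Pearson's r between the deviations of each pair of members over the 15 libraries, on a scale from -1 (blue) to 1 (red), in order of role. The secreted proteins and the enzymes at the lower right form separate dark blocks, and Fabp1 and G6pc have dark cells in the other class's block.

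Wild type library 3 at 14 weeks stood out when the classes were compared. Its enzymes had a median deviation of 0.59 from the group mean on the log2 scale and its secreted members one of -0.51, and in no other library did these medians have opposite signs with a difference as large. Enzymes of amino acid metabolism outside the members had a median deviation of 0.42 in that library and other plasma proteins -0.39. Its endothelial markers stood 0.49 above and its Kupffer cell markers 0.41 below their group means, and its Alb was the lowest of the 15 libraries. Wild type library 1 at 14 weeks was high in both (0.73 for secreted members and 0.23 for enzymes), with Kupffer cell markers 0.43 above and endothelial markers 0.94 below. In ob/ob library 2 at 14 weeks both were high (0.96 and 1.06), the Kupffer cell markers were 0.29 lower and the endothelial markers 0.40 higher. In wild type library 1 at 9 weeks the fibrinogen, Hp and Hpx transcripts and a list of acute phase genes (median deviation 0.42) were high, with Alb 0.16 below its group mean. The part of other cells in these deviations was not tested.

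Other genes of the same functions, on lists chosen with earlier results of these data known, behaved as follows. For comparison, 5.12% of all loci tested rose at 9 weeks and 6.57% at 14 weeks. Of other plasma proteins 26 of 30 tested rose and 2 fell at 9 weeks, and 24 of 31 rose and 1 fell at 14 weeks (median log2 change 2.30 and 1.75), with Apoh, beta-2-glycoprotein, up by 3.32 ± 0.27 and 2.60 ± 0.37. Apolipoproteins rose in 11 of 12 and 9 of 12 (2.61 and 2.16), complement genes in 11 of 18 and 10 of 19 with 1 falling at 14 weeks (1.39 and 1.09), and acute phase genes in 8 of 16 and 10 of 16 (1.72 and 1.57). Enzymes of the urea cycle and amino acid metabolism rose in 11 of 20 and 4 of 21 (0.87 and 0.78), with Mat1a, which makes S-adenosylmethionine, up by 2.13 ± 0.27 and 1.83 ± 0.47. Relative to Alb, 19 of these 20 changed by less at 9 weeks and 20 of 21 at 14 weeks, against 10 of 30 and 9 of 31 other plasma proteins and 98.7% and 97.7% of all loci, so the enzymes' share is that of loci at large. Genes of gluconeogenesis and glycogen rose in 7 of 11 at both ages (1.21 and 1.27). Fatty acid genes rose in 10 of 18 and 6 of 18 (0.66 and 0.67). Genes of the periportal zone rose in 4 of 8 and 7 of 10 (0.79 and 0.81) and those of the pericentral zone in 7 of 13 and 5 of 13 (1.51 and 0.91). Of 21 hepatocyte transcription factors 6 and 7 reached a mean of 1 FPKM and 0 passed at either age (-0.24 and -0.22), with Creb3l3, which acts on lipid genes, at 0.35 ± 0.12 and 0.53 ± 0.21 (limma, adjusted p = 0.124 and 0.131). The other factors picked by the smallest p were lower in ob/ob: Nr5a2 at -0.69 ± 0.31 at 9 weeks and Nr2f6 at -0.35 ± 0.10 at 14 weeks (limma, adjusted p = 0.198 and 0.0582).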

How the data were processed

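The 15 Kupffer cell libraries form 4 groups. The deposited values were FPKM, in 1 table per age. The submitters' processing notes name STAR, Cufflinks, cutadapt and bcl2fastq and the build mm10, and versions, settings and any scaling across tables are not given in the sources used here. Both tables hold the same 15897 loci, with 0 values at 0. Columns were matched to samples by name. Fits used log2(FPKM + 1) without further scaling, and this scale shrinks the change of low transcripts. A locus was tested at an age if its mean there reached 1 FPKM, by limma 3.58.1 in R 4.3.3 with a variance trend and Benjamini-Hochberg adjustment at 0.05 over all loci, ob/ob against wild type within each table. The ratio to Alb used log2(FPKM + 0.1). The age interaction and the correlations used all libraries. Steps were tested on simulated data, where the fit of the ratio to Alb made more false calls than its threshold allows and missed most smaller differences, while a fit with each locus's own variance made no calls. In the simulated ratios loci were drawn independently of Alb and few changed relative to it, so these rates do not carry over to the members. Other pseudocounts, filters, median-ratio scaling, Ahsg as the reference, a replicate block and leaving out libraries were tried.

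The members, the lists and the tests were chosen with earlier results of these data known. All 32 members are described, and from 10 lists of other genes (186 of 201 symbols found) up to 2 per list and age were to be named, chosen by the largest change past the threshold or else by the smallest p, of which the text gives some, with the 5 loci most correlated with Alb. Depth is unknown, and no precision was derived for low values. Gene symbols are those of the tables, and promoters are from RefSeq.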

Additional observations from a re-analysis of the deposited data

Results flagged for a closer look

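Single libraries stood far from the others of their group in 18 of 96 tests of a member in a group of 4 libraries, by Dixon's ratio of the gap to the range on log2(FPKM + 1), above 0.829. Chance gives about 1 in 20. Of these, 16 were ob/ob library 2 at 14 weeks, the highest of its group: Alb (4745 FPKM against 1989.6 to 2176 in the other 3 libraries), Rbp4 (144 FPKM), Gc (406), Ahsg (276), Fabp1 (109.9), Hp (41.2), Hpx (403), Cp (76.5), Fga (89.0), Fgb (52.6), Fgg (111), Plg (48.6), Kng1 (70.0), Vtn (154), Itih3 (12.7) and Itih4 (57.5). The members of a library are not independent of each other, so these are 1 library seen 16 times. That library was not the highest in total FPKM (539259), and its Kupffer cell and endothelial marker deviations are given in the report.

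In wild type library 2 at 9 weeks Pck1 (0.455 FPKM against 1.41 to 1.54 in the other 3 libraries) and Fah (0.834 against 1.37 to 1.46) were the lowest of their group.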

How the results depend on the processing

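The counts of members that rose went from 24 at 9 weeks to 12 when ob/ob libraries 1 and 3 were left out together, and from 20 at 14 weeks to 12 under the replicate block, which gave 21 at 9 weeks. The labels do not say whether a shared replicate number marks a pair. Deviations of libraries with the same number correlated from -0.187 to 0.108 over 3 pairs at 9 weeks and from -0.475 to -0.075 over 4 pairs at 14 weeks. Those of libraries with different numbers correlated from -0.372 to 0.370 and from -0.501 to 0.627. These few values cannot decide whether the numbers pair the libraries, so the block is given only as an alternative. Members that changed by less or more than Alb went from 22 to 14 at 9 weeks with a filter at a mean of 5 FPKM and to 14 (9 more, 5 less) with Ahsg as the reference, and from 13 to 6 at 14 weeks with that filter and to 7 without wild type libraries 1 and 3. The filter tested fewer members (21 of 29 and 22 of 31), and for the other changes the cause was not tested. With Ahsg as the reference at 9 weeks, the differences of Fabp1 (0.51), Ambp (0.41), Hpx (0.64, adjusted p = 0.0344), Fga (0.25), Fgg (0.27), Plg (0.33), Vtn (0.033), Itih4 (0.57) and G6pc (0.26) turned positive, and the others of these did not pass.

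Leaving out each library in turn gave 20 to 26 members called at 9 weeks, 16 to 20 at 14 weeks, 16 to 22 and 10 to 15 for the change relative to Alb, and 0 for the age difference and for the correlation with Alb. Over all alternatives, single members kept their direction and side of the threshold in 371 of 409 values of the log2 change at 9 weeks and 444 of 471 at 14 weeks, and relative to Alb in 377 of 423 and 429 of 486. Over all loci, calls at 9 weeks went from 909 to 269 under the block, 528 with a filter at 5 FPKM, 356 without ob/ob libraries 1 and 3, and 409 to 901 without single libraries. At 14 weeks they went from 1548 to 512, 927, 842 without wild type libraries 1 and 3, and 942 to 1786. The age difference gave 3 loci, none a member, without ob/ob library 4 at 9 weeks. Depth is unknown, so its limit on low transcripts such as Otc and Bhmt could not be measured.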

Other observations

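A few genes near the members in function stood far from Alb. Apoa4, an apolipoprotein of triglyceride-rich particles, had a mean FPKM of 101 ± 21.8 (SD of 3 ob/ob libraries) against 0.240 ± 0.046 (SD of 4 wild type libraries) at 9 weeks. At 14 weeks it had 90.8 ± 47.7 against 0.513 ± 0.303 (SD of 4 libraries each). Its log2 change exceeded that of Alb by 4.78 ± 0.35 and 4.30 ± 0.52 (SE, limma). Cyp4a14, a fatty acid hydroxylase and target of the receptor PPARA, was at 20.02 ± 7.78 against 0.131 ± 0.167 FPKM and at 18.4 ± 10.4 against 0.0926 ± 0.0794, and exceeded Alb by 3.18 ± 0.41 and 3.64 ± 0.56. Orm2, an acute phase protein, was at 5.001 ± 2.19 against 0.0649 ± 0.0465 FPKM at 14 weeks and exceeded Alb by 1.94 ± 0.59 (adjusted p = 0.00103). Serpina1e, of the alpha-1-antitrypsin family, went the other way, at 0.0914 ± 0.0651 FPKM in ob/ob against 22.7 ± 4.53 in wild type at 9 weeks and 0.719 ± 0.834 against 28.5 ± 12.7 at 14 weeks, and it fell by 4.42 ± 0.15 and 4.12 ± 0.39 on the log2 scale. It has near-identical copies, so its own level is uncertain. Of these genes, Apoa4, Cyp4a14 and Orm2 reached the filter's mean of 1 FPKM only through ob/ob libraries, and Serpina1e only through wild type libraries.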
